A study of Mus musculus with 9 samples.

Results

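miR-320-3p (MIMAT0000666) is 1 of 876 mature miRNAs with at least 1 count in the 9 small RNA libraries of mouse serum described here. It was chosen by its miRBase identifier and with its own measured values known, namely its count in each library, its share of all miRNA counts and its rank among the miRNAs of the library. These values are therefore given as a description and without a test. Serum came from healthy male and female 129/SVj mice, 2 to 9 months old, that were sedated with tribromoethanol (250 mg/kg) before cardiac puncture. The groups differ in how the same RNA was treated. Control fractions were left undepleted, beads fractions were depleted of 5′ tRNA-half fragments (made when tRNAs are cut in the anticodon loop) by DNA probes that carry biotin and are pulled out with streptavidin on magnetic beads, and RNase H fractions were treated with such probes, RNase H and DNase I. Each group holds 3 libraries, from serum pools A, B and C, and each pool contributed 1 library to each group. The labels speak of 3 pools, whereas the study's methods describe aliquots of a pool made from 3 mice, so the spread between libraries of a group may be technical only.

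Most miRNAs are cut out of a long transcript by the nuclear nuclease Drosha before Dicer releases the mature duplex. The miR-320 precursor is a known exception. Its short hairpin is transcribed directly by RNA polymerase II, carries the cap that RNA polymerase II transcripts receive at their 5′ end, leaves the nucleus through exportin 1 and is then cut by Dicer, and the strand that is mainly loaded into Argonaute is the 3p strand. Like other mature miRNAs, miR-320-3p lowers the output of messenger RNAs that pair with its seed. Counts of a mature miRNA do not show how it was made, so the libraries bear on its level in serum and not on its processing.

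The mouse annotation holds 1 gene of this name, Mir320, at chr14:70443510-70443591 on the plus strand (GRCm38, the build to which the reads were mapped). The hairpin is 82 bases long and overlaps 0 other annotated genes, so it is neither exonic nor intronic. On one side, 62 bases separate it from the 5′ end of Polr3d, which is transcribed away from it on the minus strand (70438757 to 70443447) and encodes a subunit of RNA polymerase III. The nearest gene on the other side, Phyhip, starts 13884 bases away.

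Control libraries held 3904095 to 4920457 annotated counts, of which 4.92% to 6.72% were miRNA. Beads libraries held 2796718 to 3538246 counts with 51.5% to 71.4% miRNA, and RNase H libraries held 47252 to 160581 counts with 1.27% to 4.18% miRNA. The miRNA sum to which miR-320-3p was scaled was thus 205185 to 330676 counts in control, 1822088 to 1995956 in beads and 1199 to 2040 in RNase H libraries. Annotated counts are not all mapped reads. For beads libraries the study reports more mapped reads than for control, and a lower miRNA percentage than the one given here. More of the mapped reads thus lack an annotated count in beads than in control libraries. A limit of 3 counts was set for a level, although a library can show 1 count, and miRNAs with at least 1 count are called detected below. This limit equals a share of at most 0.00146% of the miRNA counts in control and 0.000165% in beads libraries. In RNase H libraries it equals 0.147% to 0.2502%. These limits and all intervals below are computed from read counts and describe counting error alone. PCR copies were not told apart by molecular identifiers, so reads are not independent molecules and the intervals may be too narrow. Apart from miR-16-5p, which the study pairs with its identifier, the files name no other miRNA, and the tissue was not checked against named marker miRNAs.

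In undepleted serum miR-320-3p was a miRNA of moderate level with very similar values in all pools. The raw count was 256 in pool A, 427 in pool B and 313 in pool C. As a share of the miRNA counts of each library, these were 0.125% (Wilson 95% confidence interval 0.11% to 0.141%), 0.129% (0.117% to 0.142%) and 0.126% (0.113% to 0.141%). The differences in raw count between pools followed the depth of the libraries, and no pool stood apart once the counts were scaled. The mean share was 0.127% ± 0.00227 (SD, n = 3). The coefficient of variation between pools was 1.79%, below the 5.58% that counting error alone gives on average at these counts. With 3 libraries, a value below counting error does not show an unusually stable level. Among the 20 miRNAs nearest to it in control share, with shares of 0.0774% to 0.2000%, the median coefficient of variation was 6.96%, and 1 miRNA had a lower value than miR-320-3p.

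**Figure D1:**
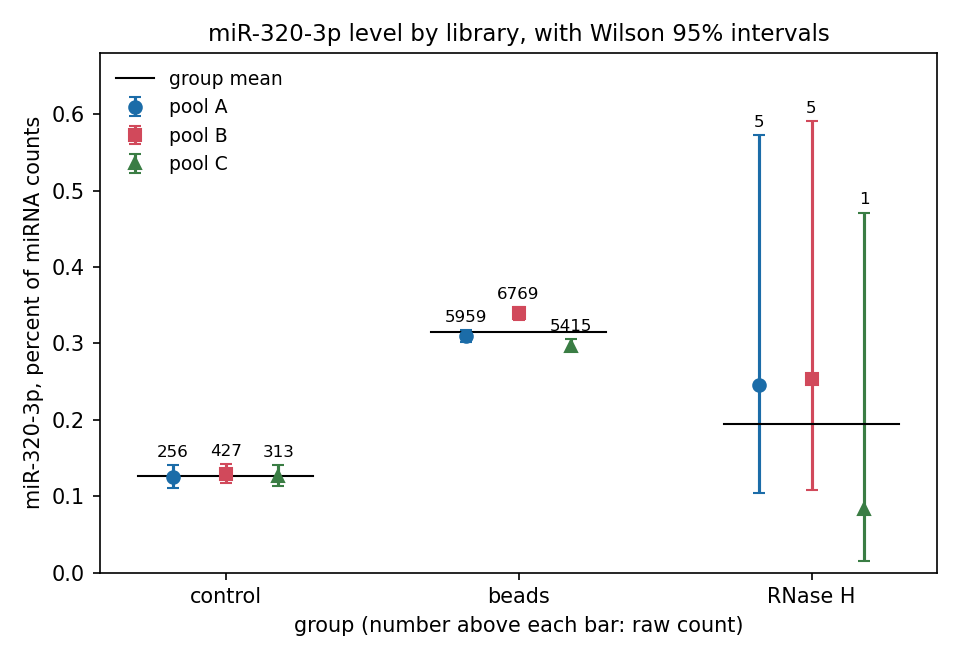
miR-320-3p as percent of the miRNA counts of each library (vertical axis) in the control, beads and RNase H groups, with 1 point per serum pool, Wilson 95% intervals as bars, the raw count above each bar and the group mean as a horizontal line. The control libraries sit at 0.125% to 0.129%, the beads libraries at 0.297% to 0.339%, and the RNase H libraries, with 5, 5 and 1 counts, have intervals that span both.

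By rank, miR-320-3p was number 57 of 404 detected miRNAs in pool A, 59 of 444 in pool B and 61 of 426 in pool C. Ranked by the mean share over the 3 control libraries it was number 59. The miRNAs just above it were MIMAT0000132 (0.137% ± 0.00486) and MIMAT0000141 (0.132% ± 0.0124), and those just below it were MIMAT0000532 (0.126% ± 0.00881) and MIMAT0005859 (0.126% ± 0.00496, SD, n = 3 each). The ranges of MIMAT0000141, MIMAT0000532 and MIMAT0005859 over the control libraries overlapped that of miR-320-3p, so its place among these 3 was not separated by the spread between libraries. That of MIMAT0000132 (0.132% to 0.142%) lay above it.

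After depletion with beads miR-320-3p had a higher raw count and a higher share of the miRNA counts in every pool. Both values come from sequenced reads, and the absolute amount of miR-320-3p in the RNA was not measured. The raw count was 5959 in pool A, 6769 in pool B and 5415 in pool C. The shares were 0.309% (Wilson 95% confidence interval 0.302% to 0.317%), 0.339% (0.331% to 0.347%) and 0.297% (0.289% to 0.305%), with a mean of 0.315% ± 0.0216 (SD, n = 3). All 3 beads libraries lay above all 3 control libraries. This was also the case for 22.8% of the 307 miRNAs that passed the filter for low counts in this comparison (70 miRNAs), so separation of the groups by itself is not particular to miR-320-3p.

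The mean raw count was 18.2 times that of the control libraries, whereas the sum of all miRNA counts was 7.32 times as high. Scaled to the miRNA counts, the ratio of the mean shares was 2.49. Within pools it was 2.48 in A, 2.63 in B and 2.36 in C, and the mean of these ratios was 2.49 ± 0.133 (SD, n = 3). With counts summed over the pools, the ratio of shares was 2.49 with an exact 95% interval of 2.33 to 2.65 for counting error. The ratios of all 3 pools lay within that interval, which leaves out the spread between pools and is not a range for single pools. Unlike in control libraries, the spread between beads libraries (coefficient of variation 6.85%) was above the 1.29% expected from counting error alone, and it was close to the median of the same 20 miRNAs (7.11%).

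The rank rose with the share. miR-320-3p was number 37 of 655 detected miRNAs in pool A, 36 of 671 in pool B and 37 of 669 in pool C, and number 35 by the mean share. Of the 4 neighbours in control, MIMAT0000132, MIMAT0000141 and MIMAT0000532 had mean beads shares of 0.121%, 0.114% and 0.112%, which are 0.884, 0.861 and 0.883 times their control shares, and MIMAT0005859 had 0.154%, or 1.22 times. The mean beads shares of all 4 were below the lowest beads share of miR-320-3p.

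**Figure D2:**
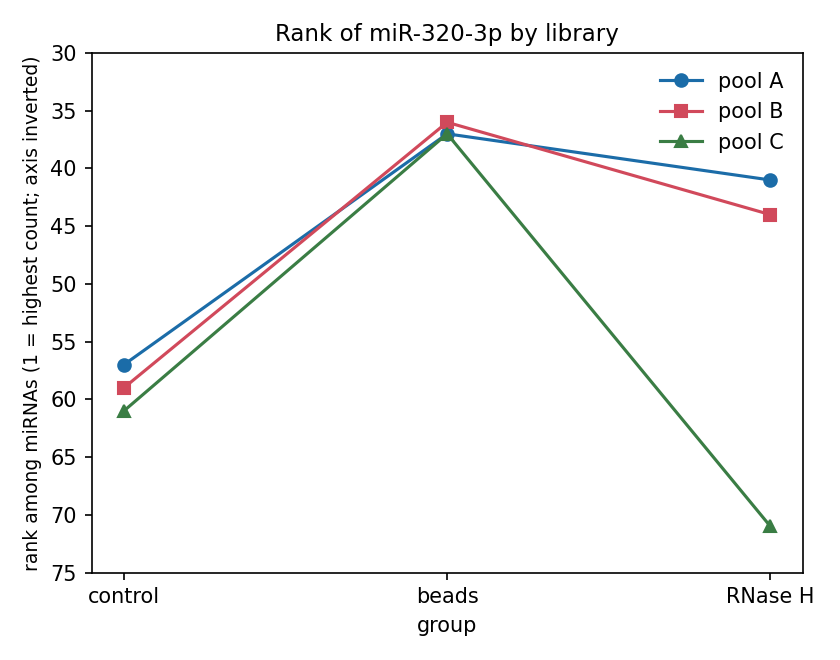
Rank of miR-320-3p among the miRNAs of each library (vertical axis, inverted so that the highest level is at the top) in the control, beads and RNase H groups, with 1 line per serum pool. The rank goes from 57 to 61 in control to 36 or 37 in beads libraries, and pool C falls to 71 in the RNase H group, where its count was 1.

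The size of this difference was set against that of other miRNAs. Among the 20 miRNAs nearest to miR-320-3p in control share, the ratio of beads to control shares had a median of 1.03 and ranged from 0.403 to 2.07, so 0 of the 20 reached the ratio of miR-320-3p. Among the 100 miRNAs with the highest control shares, miR-320-3p included, the ratio ranged from 0.318 to 2.49 with a median of 0.981, and miR-320-3p had the highest value. Its gain of 24 rank places was also the largest of the 100, whose median change was -0.5 places. Since miR-320-3p was selected on these values, its position at the end of the list is a description of these libraries.

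In the edgeR fit across all 307 miRNAs, the log2 fold change of miR-320-3p was 1.32 ± 0.089 (SE), against a median of 0.043 over all miRNAs and a 10th to 90th percentile range of -0.57 to 1.23. In this fit 82 of 307 miRNAs (26.7%) had an adjusted p below 0.05 by edgeR's quasi-likelihood test, 51 of them higher and 31 lower after depletion. With all annotated counts as library size, all 332 miRNAs tested passed and all were higher. No p is given for miR-320-3p, because this contrast was used to choose it. The SE of its fold change comes from the same fit and takes no account of that choice. Larger fitted changes, of 1.33 or more on the log2 scale, were obtained for 29 miRNAs. Their control shares were at most 0.0149%, and that of miR-320-3p was 8.48 times as high. For 11 of the 29 at least 1 control library had no count, and 1 had no count in any of them. These 11 passed the filter through their beads counts, so a low control share comes with their being tested, and their fitted changes depend on the prior count. The rest of the 29 had counts in every control library. Among them were MIMAT0014946, with at least 31 counts in each and a change of 1.38 ± 0.16 (SE), and another with at least 16 and 4.03 ± 0.15 (SE).

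**Figure D3:**
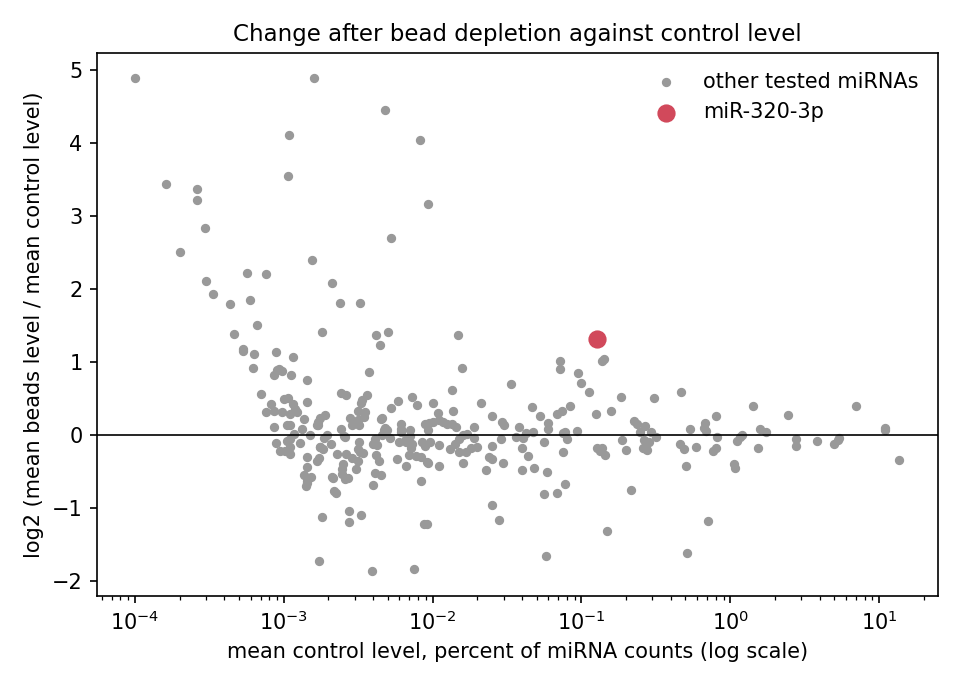
Log2 ratio of the mean beads share to the mean control share (vertical axis) against the mean control share in percent of miRNA counts (horizontal axis, log scale), with 1 point for each of the tested miRNAs that had a count in both groups. miR-320-3p, in red, has a log2 ratio of 1.32 at a control share of 0.127%, above every point at a higher control share. The larger ratios belong to miRNAs with control shares of 0.0149% or less.

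In RNase H libraries miR-320-3p had at least 1 count in every pool, but reached the limit of 3 counts only in pools A and B. The raw count was 5 in pool A, 5 in pool B and 1 in pool C. The shares were 0.245% (Wilson 95% confidence interval 0.105% to 0.572%), 0.253% (0.108% to 0.591%) and 0.0834% (0.0147% to 0.471%), with a mean of 0.194% ± 0.0957 (SD, n = 3). Pools A and B lay above the control range and pool C, which has fewer counts than the limit of 3, lay below it, so the groups overlapped. All 3 libraries lay below the beads range, but each interval includes the mean beads share of 0.315%. At the control share of their own pool, 2.55, 2.55 and 1.51 counts would have been obtained from these libraries, and at the beads share 6.31, 6.70 and 3.56.

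The ratio of the mean RNase H to control shares was 1.53. Within pools it was 1.96 in A, 1.96 in B and 0.663 in C, and without pool C the ratio of means was 1.96. With counts summed over the pools, 11 of 5216 miRNA counts in RNase H libraries were miR-320-3p, and the ratio to control was 1.66 with an exact 95% interval of 0.827 to 2.99, and the ratio to beads libraries was 0.668 (0.333 to 1.195). These intervals describe the counting error of the summed counts, leave out the spread between pools, and are wide because of the 11 counts. In the edgeR fit of 138 miRNAs, the log2 fold change was 0.62 ± 0.44 (SE), against a median of -0.19 over all miRNAs. In this comparison 16 miRNAs (11.6%) had an adjusted p below 0.05 by edgeR's quasi-likelihood test. Without pools A, B and C this number was 8 of 144, 30 of 140 and 4 of 140 tested.

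By rank miR-320-3p was number 41 of 112 detected miRNAs in pool A (tied with 3 others), 44 of 113 in pool B (tied with 3 others) and 71 of 98 in pool C (tied with 27 others), and number 51 by the mean share. Ordered by mean share, miR-320-3p was thus lowest in control, intermediate in RNase H and highest in beads libraries. Control and beads were separated by more than the spread between libraries, whereas the place of RNase H between them was not resolved.

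The level of miR-320-3p was also expressed relative to miR-16-5p (MIMAT0000527), which had the highest count of all miRNAs in each control library. There were 9.08, 9.40 and 9.36 miR-320-3p counts for every 1000 miR-16-5p counts in control pools A, B and C. After depletion with beads the values were 28.6, 31.3 and 28.1, and after RNase H they were 38.5, 22.4 and 8. The mean was 3.16 times that of control with beads and 2.47 times with RNase H. miR-16-5p itself had a lower share of the miRNA counts in every beads library (10.6% to 10.8%) than in every control library (13.5% to 13.7%), and it was also lower in every RNase H library (6.37% to 11.3%). This lower denominator enters both ratios on this scale, and the RNase H ratio is 1.53 when counts are scaled to the miRNA sum.

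The total to which counts are scaled decides what a ratio describes. Per 1000000 annotated counts of all small RNA classes, miR-320-3p had 61.4, 86.8 and 80.2 counts in control, 1779, 2420 and 1530 in beads and 31.1, 105.8 and 12.6 in RNase H libraries. The mean was 25.1 times that of control with beads and 0.655 times with RNase H, so the direction for RNase H is the opposite of that relative to miRNAs. Mapped reads without an annotated count, more frequent in beads than in control libraries, are outside this total. The 25.1 is thus not a ratio per mapped read. On this scale the miRNA fraction as a whole changes. With all annotated counts as library size, the median log2 fold change over miRNAs was 3.37 for beads and -1.70 for RNase H, and that of miR-320-3p was 4.65 ± 0.27 (SE) and -0.95 ± 0.61 (SE). It lay above the median in both, but the RNase H value has a wide SE and rests on 11 counts.

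**Figure D4:**
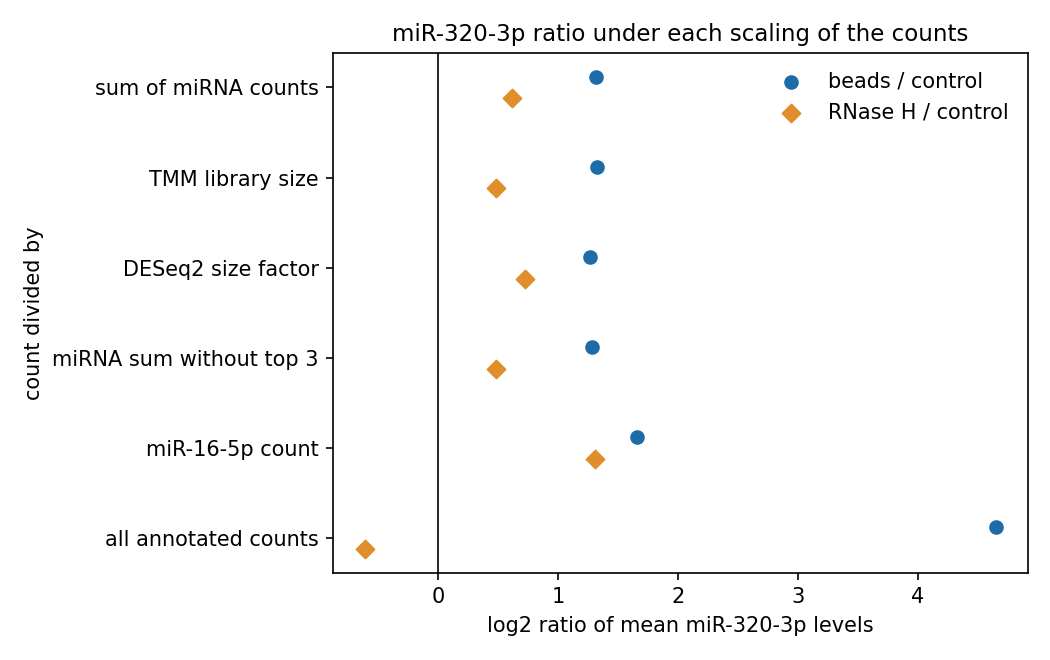
Log2 ratio of the mean miR-320-3p level to control (horizontal axis) for beads (circles) and RNase H (diamonds), with the counts divided by each of 6 quantities (vertical axis). The beads ratio lies between 1.27 and 1.66 for the quantities based on miRNA counts and at 4.65 for all annotated counts. The RNase H ratio lies between 0.48 and 1.31 and at -0.61.

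The miRNAs whose pattern over the 9 libraries was most like that of miR-320-3p were sought by the root mean square difference of log2 shares, after the mean of each miRNA over the libraries was subtracted. Of 42 miRNAs with at least 3 counts in every library, the nearest were MIMAT0003151 (difference of 0.483 on the log2 scale, Pearson's r = 0.643 over 9 libraries) and MIMAT0000533 (0.52, r = 0.546), and the fifth nearest was at 0.575. The median difference over the 42 was 0.68, so the nearest were only moderately closer than a typical miRNA. All 9 values of a miRNA share the depth of their libraries, and the low counts in RNase H libraries weigh most in this measure. The beads shares of MIMAT0003151 and MIMAT0000533 were 1.42 and 1.204 times those in control, less than the 2.49 of miR-320-3p. Neither thus shared the size of its difference between beads and control.

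When only the 6 control and beads libraries were compared, over 169 miRNAs with at least 10 counts in each, the nearest were MIMAT0014946 (0.16, r = 0.972) and MIMAT0029894 (0.182, r = 0.984). MIMAT0014946 had a mean share of 0.0149% ± 0.00217 in control and 0.0385% ± 0.00215 in beads libraries (SD, n = 3), a ratio of 2.58. MIMAT0029894 had 0.0720% ± 0.00174 and 0.146% ± 0.00842, a ratio of 2.02. Correlations over 6 libraries that fall into 2 groups mainly follow the difference between those groups. The 5 nearest miRNAs over 6 libraries each had under 3 counts in an RNase H library and so were not among the 42 compared over 9 libraries. miR-320-3p itself, with 1 count in RNase H pool C, was exempt from that minimum.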

How the data were processed

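Small RNA from 9 serum libraries was sequenced (TruSeq kit, 15 PCR cycles). Adapters were removed by the authors (Cutadapt v1.8.1), who filtered on quality, mapped reads without mismatches to GRCm38 with Bowtie (v1.1.2) and annotated them by position with miRBase, UCSC and Ensembl. The deposited values are raw counts per mature miRNA and per distinct sequence of the other classes (18 files). Reads with a mismatch, such as untemplated ends, are not counted.

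Levels are shares of the miRNA sum (Python 3.11.15, SciPy 1.17.1). edgeR 4.0.16 (R 4.3.3; TMM, filterByExpr, quasi-likelihood test, Benjamini-Hochberg adjustment, threshold 0.05) was fitted to the 2 groups compared and tested on simulated data. The SE was derived from the log2 fold change and its F statistic. Alternatives were DESeq2 1.42.0, other scalings, no filter, the pool as block, a fit of 9 libraries and leaving out each pool. Pools pair the libraries per the labels, since RNA of 1 pool was split over the groups. Across miRNAs, deviations of same-pool libraries from their group means had r of 0.178, 0.0757 and 0.0270 (A, B and C) for beads and -0.0653, -0.0158 and 0.0848 for RNase H.

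Named miRNAs are the 2 above and 2 below miR-320-3p in control and those most alike (pseudocount of 1 count). By the rule 5 of the latter were to be named, and 2 are, as identifiers come without names. The member and lists were chosen with earlier results of these data known. No table pairing identifiers with names was used here, so planned comparisons of the 5p arm, miRNAs with the same seed, other Drosha-independent miRNAs and markers of blood cells, endothelium, liver and muscle were not made.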

Additional observations from a re-analysis of the deposited data

How the results depend on the processing

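Relative to miRNA counts, the beads to control ratio of miR-320-3p stayed between 1.27 and 1.32 on the log2 scale with TMM library sizes, DESeq2 size factors, the miRNA sum without its 3 highest miRNAs, summed counts and the mean of ratios within pools, and between 1.27 and 1.35 when a pool was left out. It was 4.65 with all annotated counts (4.65 also in the edgeR fit) and 1.66 relative to miR-16-5p, an alternative chosen after seeing the data, as was that of summed counts. The RNase H ratio of 0.61 was 0.39 to 0.97 when a pool was left out, and was reversed, to -0.61, with all annotated counts (-0.95 in the edgeR fit). The rank by mean share was 58 to 61 in control, 35 or 36 in beads and 45 to 56 in RNase H libraries when a pool was left out. For beads 82 of 307 miRNAs passed the threshold. Under the alternatives on the scale of miRNA counts 63 to 91 passed, but the number tested differed. It was 75 of 875 without the filter and 63 of 196 in the fit of 9 libraries. With all annotated counts 332 of 332 passed, all higher. For RNase H 16 of 138 passed, and 51 of 143 with all annotated counts. Without pools A, B and C it was 8 of 144, 30 of 140 and 4 of 140. Taking the pool as replicate block, 91 and 12 passed, and the fitted log2 fold changes of miR-320-3p were 1.32 and 0.60. Of the 5 miRNAs most alike over 9 libraries, 3 remained with a pseudocount of 0.5 and 0 over the control and beads libraries. In the latter setting the RNase H libraries were left out of the minimum count and of the difference, and 169 miRNAs were compared instead of 42. The causes of the shifts under the alternatives were not tested. Depth limits the RNase H values, which rest on 11 miR-320-3p counts in all. Alternatives for the 5p arm and for Drosha-independent miRNAs were not run.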
